A study of Mus musculus with 8 samples.

Results

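The genes described here are 32 cytokines, chemokines, adhesion molecules and NF-kB targets of mouse pancreas, compared between 4 wild type and 4 Sel1L knockout arrays. They were chosen by name: a gene entered when a feature of the array carried its symbol alone in the platform's probe-to-gene table, and of several features the one with the highest mean was kept. Of the 32 genes, 31 had such a feature, out of 18820 genes measured in all. Nfkb1, which encodes the p105 and p50 subunits, was not among the features with 1 symbol and is not analysed here.

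NF-kB is a family of transcription factors that inhibitors of the IkB family hold in the cytoplasm until signals from cytokine and Toll-like receptors lead to the inhibitors' degradation. Freed dimers enter the nucleus and switch on cytokines, chemokines, adhesion molecules and survival factors, together with their own inhibitors, which end the response. In the pancreas this programme is known from pancreatitis, in which acinar cells and the leukocytes they attract both produce these messengers.

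Both groups were C57BL/6J mice homozygous for a floxed Sel1l gene, which encodes a partner of the ubiquitin ligase Hrd1 that clears misfolded proteins from the endoplasmic reticulum. The labels call fl/fl;ERCre+ animals inducible Sel1L1 knockout, and their fl/fl;ERCre- littermates wild type. Exon 6 was the floxed part, and the Cre was a fusion with the estrogen receptor under an actin promoter, which is not limited to pancreas. All animals were 8 to 20 weeks old and had daily intraperitoneal tamoxifen for 3 days (5 mg/ml, 5 μl per g body weight). The controls lacked Cre, so loss of Sel1L and Cre activity cannot be told apart, nor can loss in pancreas and loss in other tissues. The labels do not say that each numbered sample was a separate animal, so the p-values measure only how these samples vary, and that may be technical variation.

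Levels are the authors' deposited values from robust multi-array averaging, read as log2, and differences are Sel1L knockout minus wild type on that scale. A gene was called changed when the Benjamini-Hochberg adjusted p of limma, a linear model with moderated variance fitted over all 18820 genes, was under 0.05. Array medians lay between 4.94 and 5.05, and the number of arrays limits the precision. Sel1l was 12.37, 12.38, 12.38 and 12.39 in wild type replicates 1 to 4 and 11.68, 11.66, 11.70 and 11.45 in the knockout replicates (difference -0.76, SE 0.0788, limma adjusted p = 0.000196; exact permutation test, two-sided, p = 0.0286, the least possible with 4 arrays a group). The tissue label was borne out by its markers: the mean of 12 acinar genes lay between 12.52 and 12.90 on every array, although 7 of the 12 were called lower, Cela1, the gene of an elastase, by 0.56. That count was 3, with 1 higher, after quantile normalization, 8 after cyclic loess and 10 after median centring, where 12.8%, 11.4% and 21.1% of all genes were lower, against 12.6% on the deposited values. Wild type replicate 2 stood apart from the other arrays in the genes described here and in macrophage, pan-leukocyte and stromal markers, so results that rest on it are given with and without it. It was set apart by low values in these same genes. Leaving it out therefore makes most of their differences more negative by construction.

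Brightness differs between probes, so no gene's level is set against another's. As a rough guide to dim signal, olfactory receptor genes were taken, which pancreas hardly uses. The 95th percentile over 990 of them was 4.14, 4.10, 3.97 and 3.89 in wild type and 3.82, 3.76, 3.77 and 3.86 in knockout replicates 1 to 4. On this guide 21 of the 31 genes were above it on all arrays, 8 on some arrays only (Il1b, Ccl3, Ccl20, Cxcl2, Cxcl5, Cxcl10, Sele and Saa3) and 2 on none (Il6 and Ccl4). Sizes of differences in the last 10 are rough. The median of the olfactory receptor genes was also lower on every knockout array, at 2.52 to 2.59 against 2.70 to 2.81 in wild type. A small fall at dim signal was therefore not particular to the genes described here.

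Of the 31 genes, 1 was called higher and 3 lower in the knockout arrays. Birc3 rose, and Il1b, Cxcl1 and Socs3 fell. This made up 12.9% of the 31 genes, against 28.7% of all genes tested; 16.1% of all genes were called higher and 12.6% were called lower. With each array centred on its median 1 gene was called higher and 9 lower, when 33.1% of all genes were called, 12.0% higher and 21.1% lower. After quantile normalization or cyclic loess 1 was higher and 4 lower (Nfkbiz joined), when 22.5% and 22.0% of all genes were called. Knockout and wild type arrays were fully separated for 1 gene that was higher (Birc3) and 5 that were lower (Il1b, Cxcl1, Cxcl5, Sele and Socs3), which is 19.4% of the 31 against 32.2% of all genes. The median difference over the 31 genes was -0.23, and that over all genes -0.04. Among genes above the median level it was -0.03 for the 16 of the 31 tested there and 0.13 for all. An unadjusted p under 0.05 was found for 11 of them, or 35.5%, against 42.5% of all genes.

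**Figure D1:**
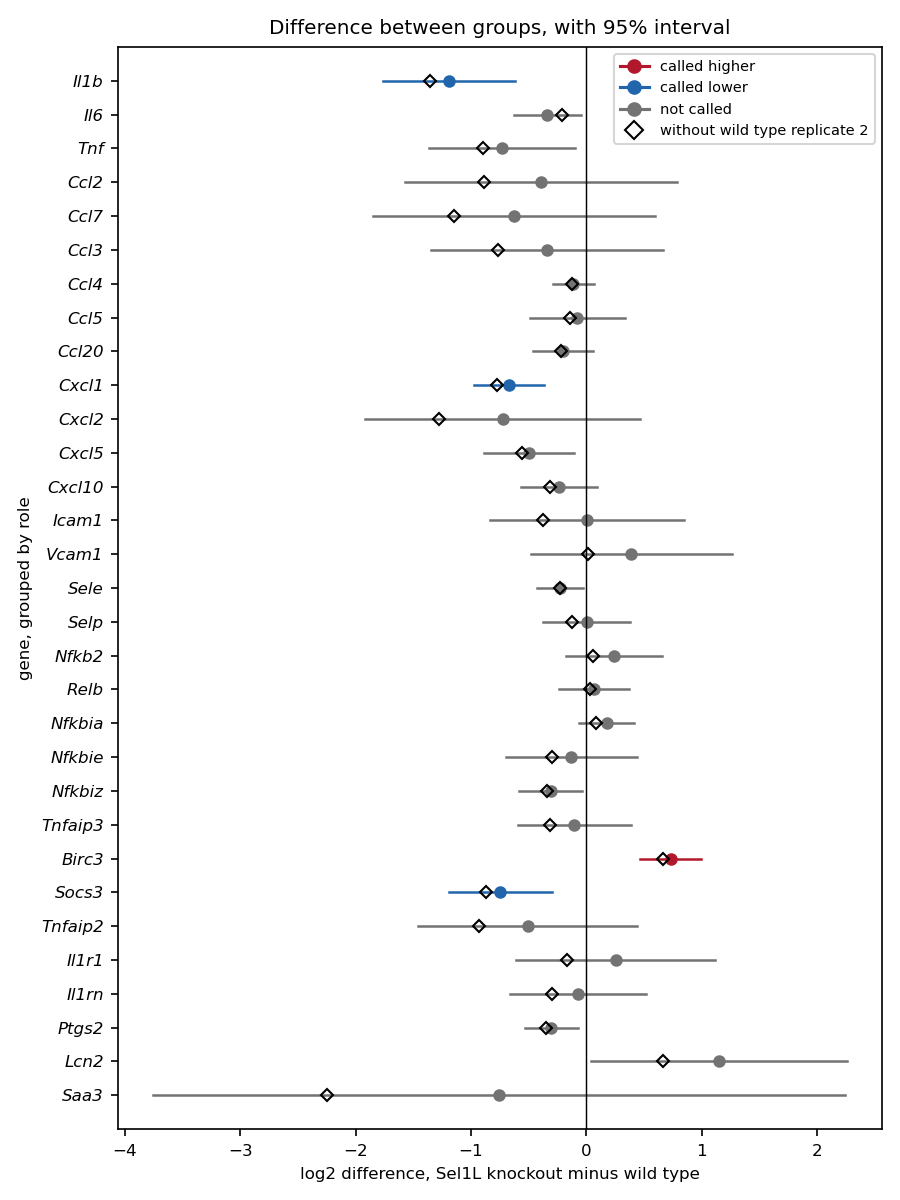
Differences of the 31 genes in log2 units (x axis, Sel1L knockout minus wild type) with their 95% intervals from limma, in red where called higher, blue where called lower and grey otherwise; open diamonds give the difference without wild type replicate 2. Birc3 is the 1 gene called higher and Il1b, Cxcl1 and Socs3 the 3 called lower, and the interval of Saa3 runs from -3.76 to 2.24.

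The stretches of 250 bases before the RefSeq start sites of the genes that passed the test are shown, with that of Cxcl2, the neighbour of Cxcl1 on the chromosome, to set beside it. The sequences are RefSeq's, on the GRCm38.p6 build, written 5′ to 3′ on the gene's own strand. Capitals mark each match on either strand to the letters GGG, any 5 bases and then CC, the outline of a kB site to which NF-kB dimers bind; matches that overlap run together. A match is a description of the letters and not a measured site.

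Cxcl1 lay at chr5:90890995-90891244 on the plus strand, Cxcl2 at chr5:90903649-90903898 on the plus strand, Il1b at chr2:129371140-129371389 on the minus strand, Socs3 at chr11:117969367-117969616 on the minus strand and Birc3 at chr9:7873171-7873420 on the minus strand.
Cxcl1: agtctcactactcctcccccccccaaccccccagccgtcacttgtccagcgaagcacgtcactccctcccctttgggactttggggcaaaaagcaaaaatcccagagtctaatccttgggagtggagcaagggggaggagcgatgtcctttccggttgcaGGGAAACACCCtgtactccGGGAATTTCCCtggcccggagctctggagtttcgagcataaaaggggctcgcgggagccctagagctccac
Cxcl2: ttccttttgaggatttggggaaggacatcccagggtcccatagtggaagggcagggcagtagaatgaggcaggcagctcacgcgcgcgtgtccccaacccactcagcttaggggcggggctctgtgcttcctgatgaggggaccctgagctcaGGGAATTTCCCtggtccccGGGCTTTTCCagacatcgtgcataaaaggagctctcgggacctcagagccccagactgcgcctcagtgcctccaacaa
Il1b: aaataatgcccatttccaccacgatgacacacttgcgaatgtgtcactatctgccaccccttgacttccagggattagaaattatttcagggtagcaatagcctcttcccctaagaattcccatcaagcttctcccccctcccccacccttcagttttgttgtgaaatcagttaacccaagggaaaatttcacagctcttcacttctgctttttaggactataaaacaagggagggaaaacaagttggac
Socs3: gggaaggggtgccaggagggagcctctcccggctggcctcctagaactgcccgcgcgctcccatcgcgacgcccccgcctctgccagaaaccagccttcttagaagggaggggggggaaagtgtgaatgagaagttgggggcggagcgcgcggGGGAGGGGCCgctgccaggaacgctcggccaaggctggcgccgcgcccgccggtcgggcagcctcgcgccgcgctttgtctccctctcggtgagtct
Birc3: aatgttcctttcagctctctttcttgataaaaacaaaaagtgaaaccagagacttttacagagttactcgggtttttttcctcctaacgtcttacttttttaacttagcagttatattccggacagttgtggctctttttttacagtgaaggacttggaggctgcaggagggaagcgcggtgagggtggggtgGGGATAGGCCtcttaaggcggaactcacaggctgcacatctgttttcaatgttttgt

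The same 10 letters, GGGAATTTCC, stood before both chemokine genes, at 71 to 62 bases upstream of the start of Cxcl1 and 97 to 88 bases upstream of that of Cxcl2. They also match the stricter NF-kB consensus. The window of Socs3 held GGGAGGGGCC at 97 to 88 bases and that of Birc3 GGGATAGGCC at 57 to 48 bases upstream, neither of which meets the consensus. The window of Il1b held no match to this outline, which says only that these letters are not in this stretch. The promoter table held 23 of the 32 genes, with 29 start sites. The outline was found in 24 of these 29 windows (82.8%), against 45.8% of all 32851 windows of the same length. The NF-kB consensus was found in 12 (41.4%), against 3.90% of all windows, in 10 genes: Il1r1, Ccl20, Il6, Cxcl1, Cxcl2, Cxcl10, Tnfaip3, Nfkbia, Nfkbie and Nfkb2. Several of these genes are textbook NF-kB targets and were listed as such. Of the 4 genes that passed the test, 1 (Cxcl1) held the consensus.

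Birc3 encodes cIAP2, a ubiquitin ligase that acts in TNF receptor signalling and restrains cell death. Its levels (feature 10590801 of the array) were 6.69, 6.32, 6.63 and 6.41 in wild type replicates 1 to 4 and 7.41, 7.12, 7.39 and 7.07 in knockout replicates 1 to 4. All 4 knockout arrays were above all 4 wild type arrays. The means were 6.51 ± 0.176 and 7.25 ± 0.176 (SD, n = 4 each), and Birc3 rose by 0.73 (SE 0.118, 1.66-fold, limma adjusted p = 0.00199). It was called under each of the 16 other settings that give 1 value per gene, with rises of 0.56 to 0.66 where the arrays were scaled differently. Birc2, its neighbour on the chromosome and close relative encoding cIAP1, was looked at in the pathway list below and rose by 0.97. The probes of such relatives can share signal, which was not tested here, so the 2 rises are not taken as separate evidence.

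Il1b encodes interleukin-1 beta, a cytokine made mainly by macrophages and monocytes. Its levels (feature 10487597) were 5.13, 4.28, 5.23 and 4.46 in wild type and 4.16, 3.41, 3.22 and 3.53 in knockout replicates 1 to 4. The groups did not overlap, and knockout replicate 1 came closest to the wild type arrays. Il1b fell by 1.19 (SE 0.254, 2.28-fold, limma adjusted p = 0.00795), from 4.77 ± 0.473 to 3.58 ± 0.406 (SD, n = 4 each). Without wild type replicate 2 it fell by 1.35 (adjusted p = 0.00465). In 3 knockout arrays it was under the olfactory receptor guide, so the knockout level is near the dim end.

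Tnf, the gene of tumour necrosis factor, was 5.56, 4.89, 5.94 and 5.13 in wild type and 5.20, 4.56, 3.97 and 4.86 in knockout replicates. Its groups overlapped, and the difference of -0.73 (95% interval -1.37 to -0.10) did not pass the test (limma adjusted p = 0.0786). With wild type replicate 2 left out the difference was -0.90 and passed (adjusted p = 0.0440), as it did without knockout replicate 1 (-0.92, adjusted p = 0.0432) and after median centring. Il6, the gene of interleukin-6, was under the olfactory receptor guide on every array, between 2.49 and 3.12 in wild type and 2.29 and 2.49 in knockout (difference -0.34, adjusted p = 0.0791), so the size of its difference cannot be read at this signal. It passed after median centring and without wild type replicate 3.

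The chemokines draw leukocytes out of the blood, those of the CXC type with a glutamate-leucine-arginine motif mainly neutrophils and those of the CC type mainly monocytes and lymphocytes. Cxcl1 (feature 10523151) was 4.98, 4.73, 5.38 and 5.02 in wild type and 4.48, 4.39, 4.16 and 4.38 in knockout replicates. Every knockout array was below every wild type array, and Cxcl1 fell by 0.67 (SE 0.135, 1.59-fold, limma adjusted p = 0.00612). The fall was called under each of the 15 other settings that give this gene 1 value.

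Cxcl2, with the same kB letters before its start, was 5.19, 3.04, 5.66 and 4.93 in wild type and 4.95, 3.87, 3.35 and 3.75 in knockout replicates. Wild type replicate 2 held the lowest and wild type replicate 3 the highest of the 8 values, and the groups overlapped. With all arrays the difference of -0.73 did not pass (95% interval -1.92 to 0.47, limma adjusted p = 0.320), and without wild type replicate 2 it was -1.28 and passed (adjusted p = 0.0228).

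Cxcl5 had groups that did not overlap, at 3.66, 3.75, 4.49 and 3.85 against 3.62, 3.36, 3.25 and 3.53, but its difference of -0.50 missed the threshold (adjusted p = 0.0576). It passed after median centring (-0.58, adjusted p = 0.0340), with array weights (-0.54, adjusted p = 0.0326), with trend and robust variance (adjusted p = 0.0469) and without wild type replicate 1 (-0.59, adjusted p = 0.0473). It was above the olfactory receptor guide on 1 array only, wild type replicate 3. Cxcl10, a chemokine induced by interferon that lacks the glutamate-leucine-arginine motif, lay between 4.12 and 4.54 in wild type and 3.70 and 4.33 in knockout arrays (-0.24, adjusted p = 0.238).

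No CC chemokine passed the test, and 0 of the 6 had an unadjusted p under 0.05. Ccl2, which attracts monocytes through the receptor Ccr2, was 5.78, 4.27, 7.25 and 5.71 in wild type and 5.97, 5.44, 4.70 and 5.32 in knockout replicates. The wild type arrays spanned 2.98 on the log2 scale, and all 4 knockout arrays lay inside that span. The difference was -0.39 (95% interval -1.57 to 0.78, limma adjusted p = 0.587).

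Ccl7, its neighbour on the chromosome and another ligand of Ccr2, was 5.60, 4.30, 7.54 and 6.01 in wild type, against 5.73, 5.09, 4.98 and 5.14 in knockout (-0.63, adjusted p = 0.401). Ccl3, a macrophage chemokine, was 5.83, 4.10, 6.54 and 5.00 in wild type and 5.40, 5.28, 4.53 and 4.90 in knockout (-0.34, adjusted p = 0.582). In Ccl2, Ccl7 and Ccl3 wild type replicate 2 was the lowest and wild type replicate 3 the highest of the 8 arrays. Their differences without that low array were -0.89, -1.15 and -0.76 and still missed the threshold (adjusted p = 0.124, 0.0637 and 0.120).

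Ccl5, a chemokine of T cells, had knockout replicate 2 as its highest value of all 8 (5.52, against 4.76 to 4.88 in the other knockout arrays and 4.88 to 5.44 in wild type), with a difference of -0.08. Ccl4 (-0.11) and Ccl20 (-0.20), the latter a ligand of Ccr6, were dim, and neither passed the test (adjusted p = 0.307 and 0.206).

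The adhesion molecules let leukocytes roll on and stick to the vessel wall; Sele and Selp encode the endothelial selectins, and Icam1 and Vcam1 the ligands of leukocyte integrins. None passed the test, and 1 of the 4 (Sele) had an unadjusted p under 0.05. Icam1 was 5.91, 4.52, 6.57 and 5.70 in wild type and 6.24, 5.50, 5.57 and 5.42 in knockout replicates, with a difference of 0.01 whose 95% interval ran from -0.83 to 0.85. Vcam1 was 5.70, 4.55, 6.52 and 5.95 against 6.80, 6.08, 5.75 and 5.66 (difference 0.39, limma adjusted p = 0.466). Both were lowest in wild type replicate 2, and without that array the differences were -0.38 for Icam1 and 0.01 for Vcam1, neither past the threshold. Sele was lower in every knockout array, at 3.84 to 3.93 in wild type and 3.50 to 3.83 in knockout, by a small amount (-0.23, adjusted p = 0.0793) and at dim signal; it passed after median centring and without knockout replicate 1. Selp differed by 0.00 (95% interval -0.37 to 0.38).

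The NF-kB subunits and inhibitors among the genes described here showed small differences, and none passed the test with all arrays. Rela, another subunit gene, and Nfkbib, another IkB family gene, belong to the NF-kB signalling list below. Both were called higher on the deposited values. Nfkb2, which encodes the p100 and p52 subunits, was 6.45, 5.75, 6.74 and 6.23 in wild type and 6.70, 6.59, 6.48 and 6.35 in knockout replicates (0.24, limma adjusted p = 0.350; 0.06 without wild type replicate 2). Relb, the partner of p52, lay between 5.41 and 5.70 against 5.42 and 6.00 (0.07, adjusted p = 0.725). Nfkbia, which encodes the inhibitor IkB alpha and is itself an NF-kB target, was 7.73, 7.38, 7.81 and 7.68 against 7.95, 7.88, 7.70 and 7.78. Its difference of 0.18 did not pass (95% interval -0.06 to 0.42, adjusted p = 0.236), which bounds a rise at 0.42 and does not show that the groups are alike.

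Nfkbie, the gene of IkB epsilon, differed by -0.13 (adjusted p = 0.719). Nfkbiz, which encodes the nuclear protein IkB zeta, was 7.06, 6.98, 7.28 and 6.95 in wild type and 6.98, 6.85, 6.71 and 6.49 in knockout replicates. The groups overlapped, and the difference of -0.31 missed the threshold on the deposited values (adjusted p = 0.0795). It passed after quantile normalization (-0.47, adjusted p = 0.0173), median centring (-0.39, adjusted p = 0.0298) or cyclic loess (-0.46, adjusted p = 0.0234) and without knockout replicate 1 (-0.38, adjusted p = 0.0498).

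Among the feedback genes Socs3 fell. It encodes a suppressor of cytokine signalling that is induced by STAT3 downstream of interleukin-6 family cytokines. The levels (feature 10393449) were 6.09, 5.99, 6.96 and 6.36 in wild type and 5.82, 5.72, 5.41 and 5.47 in knockout replicates, so the groups did not overlap. The means were 6.35 ± 0.438 and 5.60 ± 0.196 (SD, n = 4 each), a fall of 0.75 (SE 0.200, 1.68-fold, limma adjusted p = 0.0210). The call was lost without knockout replicate 3 (-0.68, adjusted p = 0.0616) or knockout replicate 4 (-0.70, adjusted p = 0.0574). The gene's other feature, which is dimmer, differed by -0.28 and was not called (adjusted p = 0.224).

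Tnfaip3, the gene of the deubiquitinase A20 that shuts off NF-kB signalling, lay between 5.10 and 6.21 in wild type and 5.52 and 5.92 in knockout (-0.10, adjusted p = 0.736). Tnfaip2, a gene induced by tumour necrosis factor, was 6.38, 4.85, 7.05 and 6.18 against 6.37, 5.47, 5.25 and 5.33. Its difference of -0.51 did not pass with all arrays (adjusted p = 0.379) and was -0.93 and passed without wild type replicate 2 (adjusted p = 0.0431).

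Il1r1, the signalling receptor of interleukin-1, was 7.30, 5.49, 7.49 and 6.75 in wild type and 7.50, 6.74, 7.01 and 6.81 in knockout replicates. The difference was 0.26 (limma adjusted p = 0.632), and -0.17 without wild type replicate 2, where its direction turned. Il1rn, the gene of the receptor's soluble antagonist, lay between 5.00 and 6.39 against 5.30 and 5.89 (-0.07, adjusted p = 0.848). The 95% intervals of the differences ran from -0.61 to 1.12 for Il1r1 and from -0.67 to 0.52 for Il1rn.

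Of the 3 effector genes none passed the test with all arrays. Saa3, which encodes a serum amyloid A protein made outside the liver in inflammation, was 8.78, 3.90, 10.72 and 10.17 in wild type and 9.35, 7.79, 6.00 and 7.41 in knockout replicates. Wild type replicate 2 was under the olfactory receptor guide for this gene, while the other 3 wild type arrays were among the 4 highest of the 8. The wild type mean was 8.39 ± 3.10 and the knockout mean 7.64 ± 1.38 (SD, n = 4 each), and the difference of -0.76 did not pass (95% interval -3.76 to 2.24, limma adjusted p = 0.689). Without wild type replicate 2 the difference was -2.25 (SE 0.702) and passed (adjusted p = 0.0439).

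Lcn2, which encodes the iron-carrier-binding protein lipocalin 2, pointed the other way, at 6.82, 5.38, 7.89 and 7.24 in wild type and 8.64, 7.10, 8.24 and 7.95 in knockout replicates. The 3 highest of the 8 arrays were knockout arrays, but knockout replicate 2 lay below wild type replicates 3 and 4. The difference of 1.15 (95% interval 0.04 to 2.26, adjusted p = 0.107) did not pass, and it was 0.67 without wild type replicate 2 (adjusted p = 0.184). With wild type replicate 3 left out it was 1.50 and passed (adjusted p = 0.0433). Ptgs2, the gene of the inducible cyclooxygenase, was 4.64, 4.54, 4.77 and 4.74 against 4.33, 4.21, 4.33 and 4.62 (-0.30, adjusted p = 0.0524), with knockout replicate 4 inside the wild type range. It passed without knockout replicate 4 (-0.39, adjusted p = 0.0208), without wild type replicate 2 (-0.35, adjusted p = 0.0457) and after median centring (-0.38, adjusted p = 0.0270).

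**Figure D2:**
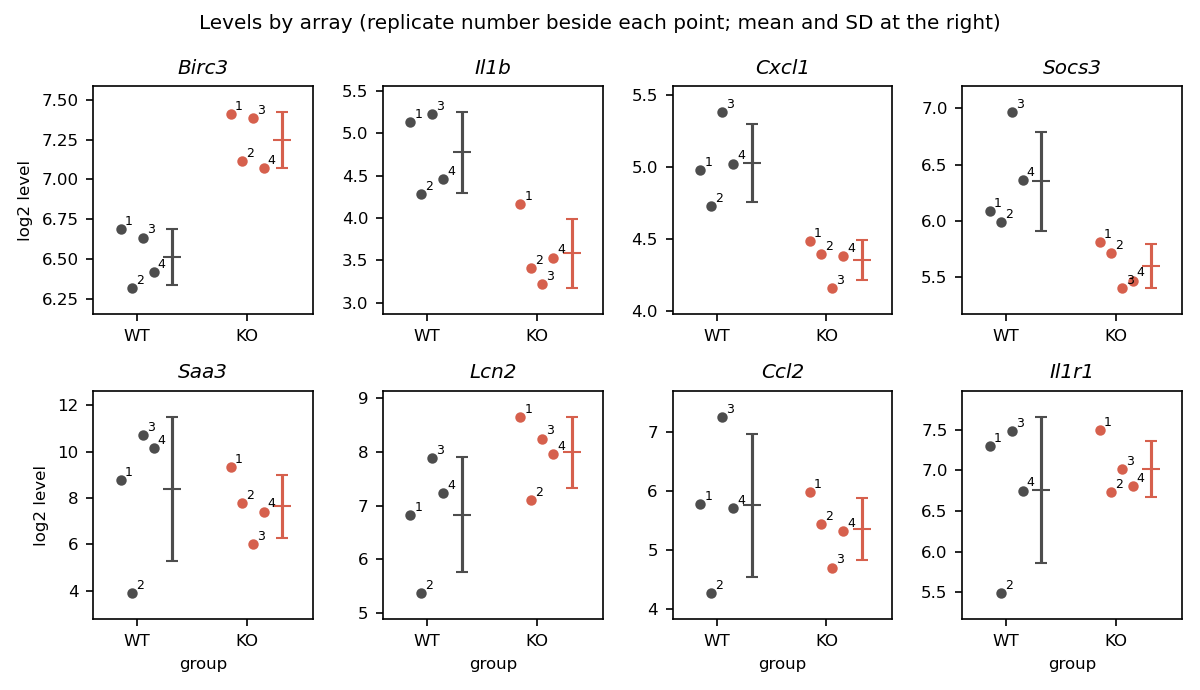
Log2 levels of 8 genes on each array (y axes, scaled per gene) by group, WT for wild type and KO for Sel1L knockout, with the replicate number beside each point and the mean and SD (n = 4) at the right. The groups do not overlap for Birc3, Il1b, Cxcl1 and Socs3, and wild type replicate 2 is the lowest of the 8 arrays for Saa3, Lcn2, Ccl2 and Il1r1.

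The arrays of 1 group differed from each other in these genes in a common order. Wild type replicate 2 was the lowest wild type array for 24 of the 31 genes (77.4%) and for 25.1% of all genes. Wild type replicate 3 was the highest for 24 of the 31 (77.4%), and for 23.3% of all genes. Among the knockout arrays, replicate 1 was the highest for 27 of the 31 (87.1%, against 25.3% of all genes) and replicate 3 the lowest for 17 (54.8%, against 23.5%). The median over the 31 genes of wild type replicate 2 minus the mean of the other wild type arrays was -0.65, and over all genes it was 0.02. The median SD of the 31 genes was 0.420 in wild type and 0.263 in knockout arrays, and that of all genes 0.169 and 0.121. The wild type SD was the larger for 22 of the 31 genes, 71.0%, close to the 68.4% of all genes.

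**Figure D3:**
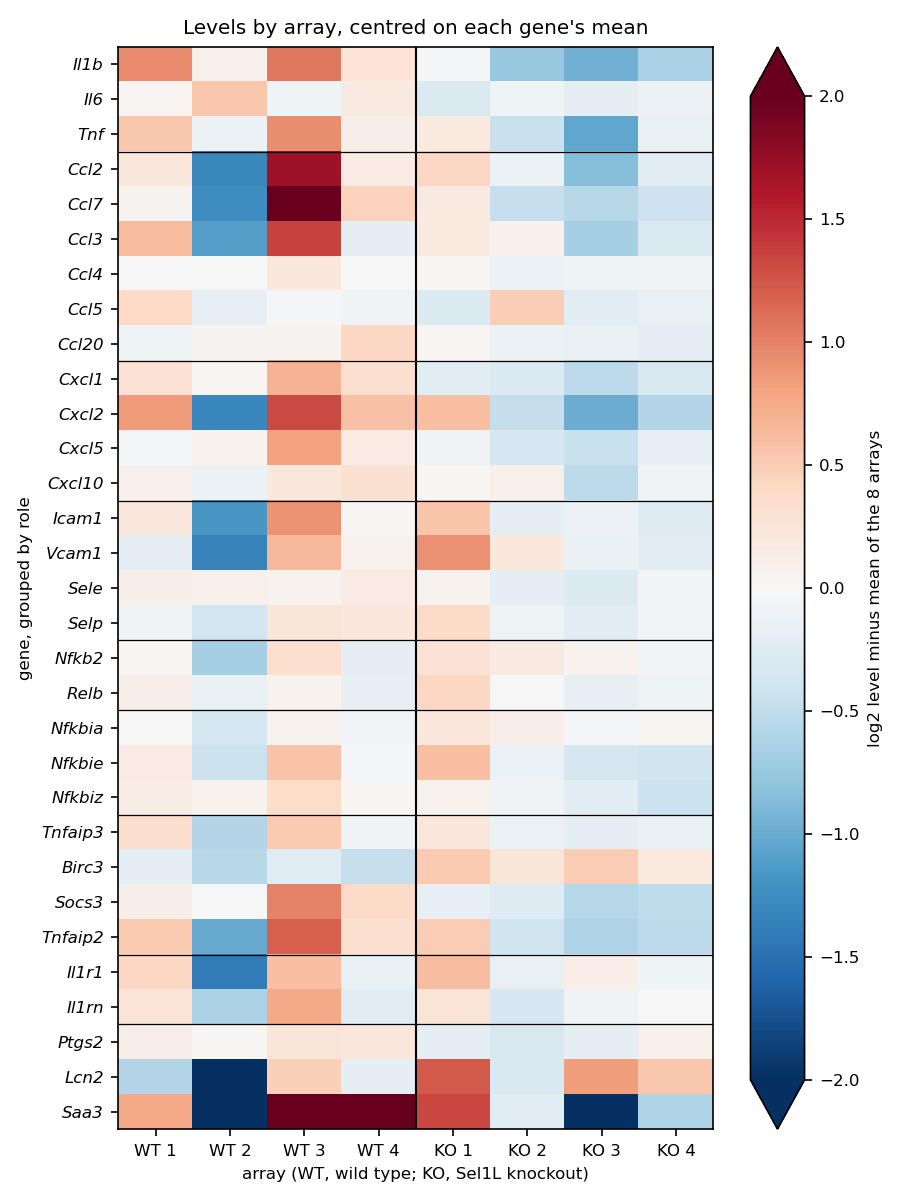
Heat map of the 31 genes (rows, grouped by role) on the 8 arrays (columns; WT, wild type; KO, Sel1L knockout), coloured by the log2 level minus the gene's mean over the 8 arrays, with colours capped at 2 in both directions. Wild type replicate 2 is the lowest wild type array for 24 genes and wild type replicate 3 the highest for 24, while Birc3 is above its mean on all 4 knockout arrays.

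Without wild type replicate 2, 1 of the 31 genes was called higher and 8 lower, or 29.0% of them against 25.4% of all genes. Those called lower then were Il1b, Cxcl1, Socs3, Tnf, Cxcl2, Tnfaip2, Ptgs2 and Saa3. Without it 7 of the 31 had groups that did not overlap (Ptgs2 joined the 6 above), against 36.4% of all genes. The median difference over the 31 genes was then -0.32, against -0.04 over all genes. As wild type replicate 2 was set apart by its low values in these same genes, a shift in this direction was fixed by that choice. The calls gained without it are no separate support for a fall. Leaving out knockout replicate 1 gave 6 called lower and leaving out knockout replicate 3 gave 2. Without wild type replicate 3, the highest wild type array for most of these genes, the median over the 31 genes was -0.06. Then 16 differences lay below 0 and 15 above, and Lcn2 was called higher beside Birc3. Il1b, Cxcl1 and Birc3 were called whichever array was left out.

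Markers of macrophages, neutrophils, leukocytes in general and stromal cells moved with this order. Their part in the differences was not tested. The neutrophil means, at dim signal, were 3.83, 3.70, 4.29 and 3.80 in wild type and 3.66, 3.63, 3.38 and 3.46 in knockout replicates 1 to 4. Some lists of related pathway genes moved with it too. Among them was the NF-kB signalling list, at 6.09 in wild type replicate 2 and 6.60 in wild type replicate 3. Islet markers ran the other way, and acinar and lymphocyte markers did not follow the order throughout. The mean over 10 islet markers was 7.75, 8.33, 7.26 and 7.93 in wild type and 7.22, 8.09, 8.29 and 7.84 in knockout replicates 1 to 4. Over 12 acinar markers it was 12.78, 12.88, 12.80 and 12.90 in wild type and 12.52, 12.55, 12.60 and 12.54 in knockout. T and NK cell and B cell markers were lowest among wild type arrays in replicate 4, at 3.89 and 3.64. Among knockout arrays both were highest in replicate 1, at 3.86 and 3.95, and B cell markers were lowest in replicate 3, at 3.52. The mean over 18 macrophage and monocyte markers was 7.35, 5.62, 7.92 and 7.18 in wild type replicates 1 to 4 and 7.66, 6.83, 6.69 and 6.97 in knockout replicates 1 to 4. The mean over the 31 genes was 5.55, 4.73, 6.01 and 5.50 in wild type and 5.62, 5.20, 5.00 and 5.15 in knockout. Wild type replicate 2 had the lowest value of the 8 and wild type replicate 3 the highest in both. The 10 pan-leukocyte markers ranged from 4.83 to 7.18 in wild type and from 5.47 to 6.76 in knockout, and the 13 stellate cell and fibroblast markers from 6.81 to 8.63 and from 7.63 to 8.51, with wild type replicate 2 lowest in each. Of the 13 stellate markers 0 were called by limma with all arrays (1 at an unadjusted p under 0.05), and 3 were lower without that array (Col1a1, Acta2 and Fn1). In such tissue RNA, fewer cells of a type and less RNA per cell cannot be told apart.

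With all arrays 16.1% of all genes were called higher and 12.6% lower, and the counts below are to be read beside that. Between the groups, 0 of the 18 macrophage and monocyte markers were called with all arrays by limma (0 at an unadjusted p under 0.05), and 4 were lower without wild type replicate 2 (Cd14, Lyz2, Lyz1 and Fcer1g). Of the 10 pan-leukocyte markers 1 fell, Itgb2, the gene of the shared chain of leukocyte integrins that bind Icam1, by 1.55 (SE 0.429, limma adjusted p = 0.0241), a call lost without wild type replicate 1 or 3 or knockout replicate 2, 3 or 4. Ptprc, the gene of the leukocyte antigen CD45, differed by -0.10 (adjusted p = 0.875). Neutrophil markers were dim, with list means of 3.70 to 4.29 in wild type and 3.38 to 3.66 in knockout arrays; 2 of 12 fell, Camp by 0.44 and Ltf by 0.38, the latter not called after quantile normalization or cyclic loess or without wild type replicate 3 or knockout replicate 1, 3 or 4. The neutrophil count was 1 to 4 whichever array was left out, 1 after quantile normalization or cyclic loess and 6 after median centring. T and NK cell markers (2 of 15 lower, Cd2 and Cd8a, 0 without knockout replicate 2, 3 or 4 or after cyclic loess, and 4 after median centring; list means 3.71 to 4.02) and B cell markers (0 of 8 called, 1 at an unadjusted p under 0.05, 2 lower after median centring, list means 3.52 to 4.12) were dim as well. Among 12 dendritic and mast cell markers Cpa3 rose by 0.54 and Kit fell by 0.95. Endothelial markers went the other way, with 7 of 14 higher and 0 lower, among them Esam by 0.54 and Tie1 by 0.49, and 2 of 14 after quantile normalization or cyclic loess, 3 without knockout replicate 3 and 4 without knockout replicate 4. The endothelial selectins Sele and Selp, at -0.23 and 0.00, did not pass the test.

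**Figure D4:**
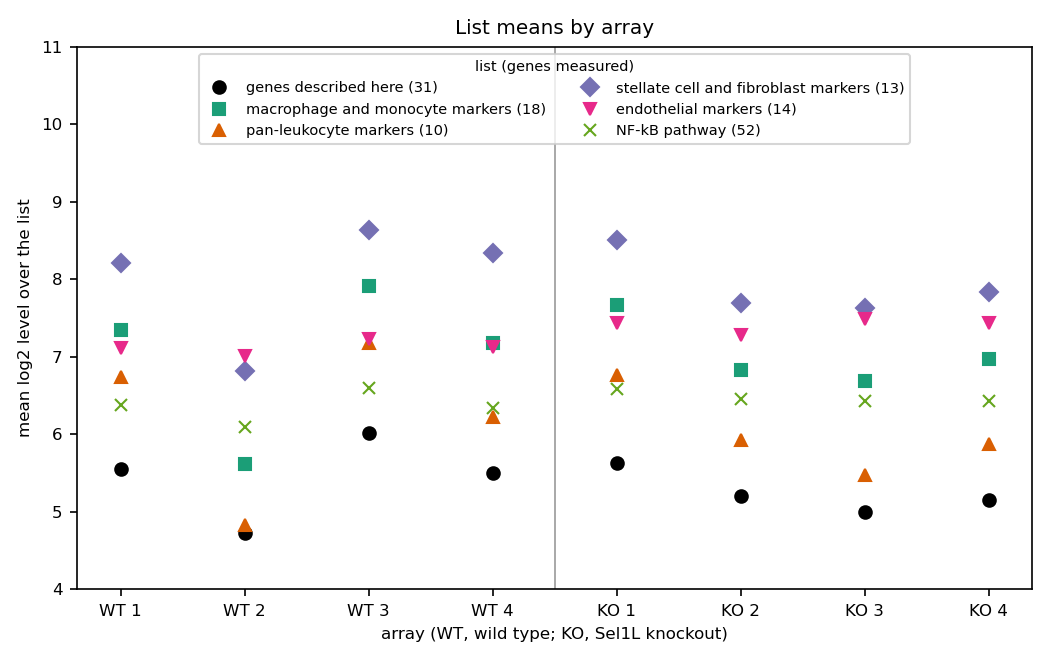
Mean log2 level over each list (y axis) on the 8 arrays (x axis; WT, wild type; KO, Sel1L knockout), for the 31 genes described here and 5 lists of other genes, with the number of genes measured in brackets. The 31 genes and the macrophage, pan-leukocyte and stellate lists are lowest in wild type replicate 2, at 4.73, 5.62, 4.83 and 6.81.

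The rest of the pathway was read from lists of related genes. The NF-kB signalling list held mostly receptors, adaptors, kinases and regulators, with a few subunit and IkB family genes such as Rela and Nfkbib. In this list 12 of 52 measured genes, Rela and Nfkbib among them, were higher and 1 lower. That is 23.1% and 1.92%, against 16.1% and 12.6% of all genes. After quantile normalization 6 genes (11.5%) were higher, near the 9.64% of all genes under that scaling, and after cyclic loess 5 (9.62%) against 10.6%. After median centring 8 were higher (15.4%, against 12.0%), and 2 or 3 genes of the list were lower under each of these scalings. It was 11 without wild type replicate 2, with 5 genes lower, and it lay between 8 and 13 whichever array was left out. Tnip1, whose product ABIN1 works with A20 to restrain NF-kB, was 5.81, 5.57, 6.22 and 6.17 in wild type and 7.52, 7.16, 7.15 and 7.74 in knockout replicates and rose by 1.45 (SE 0.178, limma adjusted p = 0.000486). Birc2, described beside Birc3 above, was 6.38, 6.28, 6.45 and 6.62 against 7.39, 7.26, 7.65 and 7.31, and Traf2, the adaptor that brings both cIAPs to TNF receptors, rose by 0.59 (SE 0.0867, adjusted p = 0.00126). Map3k3, a kinase upstream of the IkB kinases, rose by 0.63. These 4 genes did not overlap between the groups and were called under each of the 16 other settings that give 1 value per gene. They were picked as the 4 called genes of smallest p in the list, which favours both traits. The groups did not overlap for 32.2% of all genes. The gene that fell was Nod2, a sensor of bacterial peptidoglycan.

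Receptors and other messengers moved in both directions. On the deposited values 11.1% of the cytokine receptors were higher and 14.8% lower, and 5.26% and 15.8% of the other cytokines. Of all genes 16.1% were higher and 12.6% lower. Of 27 cytokine receptors 3 rose and 4 fell, with 1 higher without knockout replicate 2 or 4 and 2 lower without either of these, knockout replicate 3 or wild type replicate 3: Ifnar1, a chain of the type I interferon receptor, rose by 0.54, and Il6ra, the receptor chain that binds interleukin-6, and Il17ra, a chain of the interleukin-17 receptor, fell by 0.60 and 0.34. Sigirr, which restrains interleukin-1 receptor signalling, rose by 0.31 on the deposited values and was not called after quantile normalization, median centring or cyclic loess or without knockout replicate 2 or 4. Of 38 other cytokines 2 rose and 6 fell, and 4 to 10 fell whichever array was left out, with 10 without wild type replicate 4 and 4 without knockout replicate 1, 3 or 4. Median centring gave 10, quantile normalization 4 and cyclic loess 3. Il34, a ligand of the macrophage growth factor receptor, was 5.21, 5.52, 5.45 and 5.42 in wild type and 6.92, 6.38, 6.48 and 6.20 in knockout replicates and rose by 1.10 (SE 0.147, limma adjusted p = 0.000767). Tnfsf10, the gene of the death ligand TRAIL, rose by 0.78, and Tnfsf9, the ligand of a T cell costimulatory receptor, fell by 0.76. Tnfsf9 was dim in every knockout array, at 3.14 to 3.53, so the size of its fall is rough. Il2 fell by 0.46 at dim signal, with a wild type mean of 2.94.

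Shares higher and lower were 8.00% and 12.0% for other chemokines and 5.00% and 0% for chemokine receptors. They were 0% and 18.2% for inflammasome genes and 8.70% and 21.7% for acute phase and STAT3 target genes. Of all genes 16.1% and 12.6% were. Of 25 other chemokines 2 rose and 3 fell. Ccl25 was up by 0.43 (not called after quantile normalization), and the interferon-induced Cxcl11 was down at dim signal, from a mean level of 3.15 to one of 2.69. The calls of Cxcl3 (-0.32) and Xcl1 (-0.45) were both lost without wild type replicate 1, 2 or 3 or knockout replicate 1 or 3, and after quantile normalization or cyclic loess, and that of Xcl1 also without knockout replicate 2 or 4. Cxcl3 was dim on every array, at 3.19 to 3.72. Of 20 chemokine receptors 1 rose, Cxcr4, by 0.85, a call lost without wild type replicate 2 (adjusted p = 0.0635) or 4 or any 1 knockout array, and after quantile normalization or cyclic loess. After median centring 1 of the receptors was higher and 3 were lower. Of 11 inflammasome genes 2 fell, Nlrp3 by 0.53 and Mefv by 0.41, the latter called with wild type replicate 4 left out and lost with any other array left out and after quantile normalization or cyclic loess. Both were dim, at 3.23 to 4.07 and 3.10 to 3.89 over the arrays, so these sizes are rough. Of 23 acute phase and STAT3 target genes 2 rose and 5 fell, while 9 fell without wild type replicate 2, 3 without wild type replicate 1 or knockout replicate 4, and 2 without knockout replicate 2 or 3. Among them Socs1 and Cish, relatives of Socs3 in the feedback on cytokine receptors, fell by 0.56 and 0.61 (Cish was not called without knockout replicate 3), and Cp, the gene of ceruloplasmin, rose by 0.97.

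**Figure D5:**
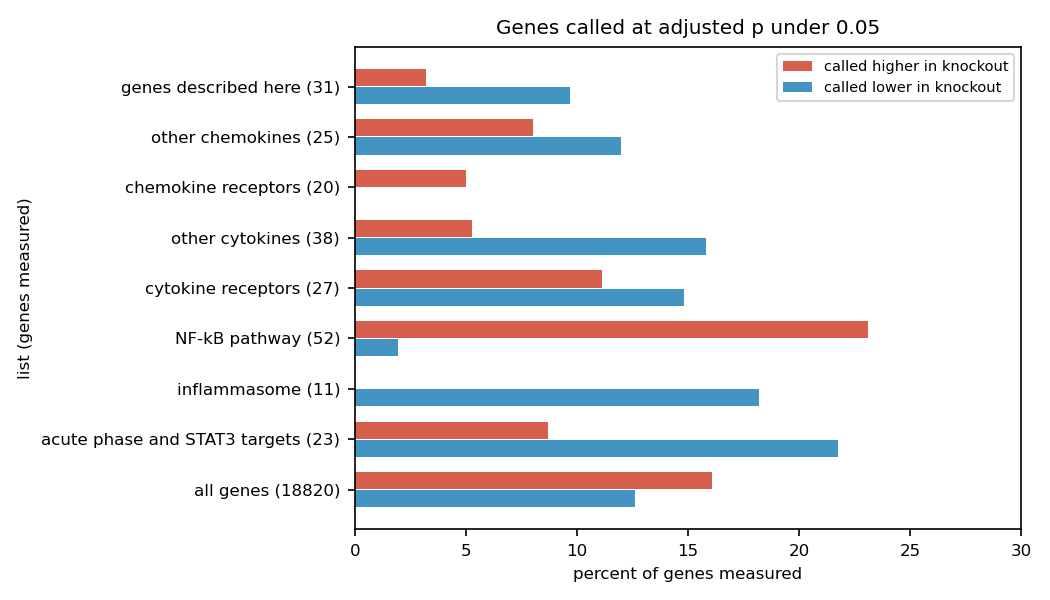
Percent of the measured genes of each list (x axis) called higher (red) and lower (blue) in the Sel1L knockout arrays at an adjusted p under 0.05, with all genes tested at the bottom. The 31 genes have 3.23% higher and 9.68% lower, the NF-kB signalling list 23.1% and 1.92%, and all genes 16.1% and 12.6%.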

How the data were processed

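Gene expression was measured on whole-transcript arrays in mouse pancreas of 4 wild type and 4 Sel1L knockout samples, grouped by the titles in the labels. Per the submitters' processing notes, the authors computed the deposited levels by RMA (robust multi-array average). Its version, the chip definition and which arrays were normalized jointly were not given in the sources used here. As deposited, levels were read as log2, as their range implies (0.964 to 14.4) though no header states it. Of 35556 features, 21218 had 1 gene symbol in GEO's platform annotation, 1881 several and 12457 none listed; features without exactly 1 were left out. Entrez identifiers of 21185 features were found in the RefSeq table of GRCm38.p6, which changed 0 symbols. Of several features per gene the one with the highest mean was kept, which gave 18820 genes, with no filter on dim genes.

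The 2 groups were compared with lmFit and eBayes of limma 3.58.1 at default settings in R 4.3.3, with p-values adjusted over all genes by Benjamini-Hochberg; figures used matplotlib 3.10.9 in Python 3.11.15. In simulated data 200 of 18820 genes were changed between 4 and 4 arrays, with noise independent from gene to gene. There limma recovered 35% of changes of 0.5 and 86% of changes of 1 in log2 units, and 7 of its 128 calls were false. In the real data 28.7% of genes were called and genes varied together between arrays. These rates check the code and do not carry over to the real arrays. The alternatives were quantile normalization, median centring, cyclic loess, only genes above the median level, the mean of a gene's features, every feature by itself, trend and robust variance, array weights, a block by replicate number, and 1 array left out at a time. The 32 genes and all lists were chosen with earlier results of these data known. All 32 were to be named, with Sel1l and up to 4 called genes of smallest p per other list. Nod2, Rela, Nfkbib, Ptprc, Socs3's other feature and marker calls made without an array were named after their values were seen. Cd14, Ccr2, Cxcr2 and Xcr1 stand in a pathway list and a marker list.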

Additional observations from a re-analysis of the deposited data

Results flagged for a closer look

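In 4 cases the highest or lowest array of a group lay far from the other 3 of its group, with a gap over range above Dixon's 95% critical value. With 68 groups tested, chance alone would flag about 1 in 20. Ccl4 was 3.52 in wild type replicate 3, against 3.31 to 3.33 in the rest of its group, a small step at dim signal. Ccl5 was 5.52 in knockout replicate 2, against 4.76 to 4.88 in the other knockout arrays. Tnfaip3 was 5.92 in knockout replicate 1, against 5.52 to 5.57 in the others. Sel1l was 11.45 in knockout replicate 4, against 11.66 to 11.70 in the others.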

How the results depend on the processing

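Birc3, Il1b and Cxcl1 kept their call under each setting that tested them; Il1b and Cxcl1 lie under the median level and were not tested among the brighter genes. The count of genes called lower, 3, was 9 after median centring and 1 among genes above the median level, where 16 of the 31 were tested, and ranged from 2 to 8 as each array was left out (8 without wild type replicate 2, 6 without knockout replicate 1); the cause was not tested. The count called higher, 1, was 2 with the replicate number as a block, which adds Lcn2 (adjusted p = 0.0208), and ranged from 1 to 2 as each array was left out (2 without wild type replicate 3). The block changed no other call of the 31 genes. Over all 18820 genes, 3721 to 5227 were called as each array was left out. Same-numbered arrays deviated from their group means with correlations of 0.22, 0.15, -0.27 and -0.02 across genes, so the numbers are not taken as pairs. In the related pathway lists 43 of 196 measured genes were called, where 28.7% of all genes tested were. After cyclic loess 28 were called, where 22.0% of all genes were. The count was 25 among genes above the median level, where fewer genes were tested. It ranged from 26 to 46 as each array was left out (28 without knockout replicate 2, 26 without knockout replicate 3). The share of promoter windows with a kB motif was 82.8% for GGG, any 5 bases and CC, and 41.4% for the stricter consensus. Of 513 pairs of a gene and a setting, 459 kept direction and side of the threshold, 23 passed it where the deposited values did not, 3 lost it (all Socs3), and 28 in 12 genes turned direction without a call. Among all genes called, 56.0% were higher with the values as deposited, 36.3% with median centring, 42.9% with quantile normalization and 48.1% with cyclic loess.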
